A study of Rattus norvegicus with 6 samples.

Results

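Nitric oxide and cyclic GMP signalling was examined in the kidney through 10 member genes: the 3 nitric oxide synthases Nos1, Nos2 and Nos3, the soluble guanylate cyclase subunits Gucy1a1 and Gucy1b1, the natriuretic peptide receptors Npr1, Npr2 and Npr3, the cyclic GMP-dependent kinase Prkg1 and the phosphodiesterase Pde5a. Members were taken by gene symbol, as every probe set that the array annotation assigns to exactly 1 of these symbols. This gave 11 probe sets of 9 genes among 31042 probe sets tested; Gucy1a1 and Gucy1b1 had 2 probe sets each, the other genes 1 each, and Prkg1 was not analysed here because the annotation used lists no probe set under its symbol. The study hybridised kidney RNA of 6 male rats to Affymetrix Rat Expression 230 2.0 arrays, 1 array per rat. The S group was 3 Dahl salt-sensitive rats, an inbred strain in which salt raises blood pressure and protein leaks into the urine. The congenic group was 3 S.LEW(10)x12x2x3x5 rats, a single line that carries chromosome 10 material of the Lewis (LEW) strain on the Dahl S background, so both groups share the S genome outside the transferred segment. The limits of that segment were not placed here. All 6 were born on the same day, weaned at 30 days, housed as 1 rat of each strain per cage, fed a diet with 0.3% salt and killed at 53 days. The 11 measured proximal tubule markers check the labelled tissue. Their mean log2 levels ran from 11.37 to 12.04 in S rats and from 12.28 to 12.58 in congenic rats. Of these markers 4 were called higher (Slc5a12, Slc4a4, Slc5a2 and Slc22a8, by 1.65 to 2.28), beside 2.12% of all measured genes, and 7 did not pass. The question here is whether transcripts of this pathway differed between the 2 strains.

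Nitric oxide is made from arginine by the nitric oxide synthases and diffuses into neighbouring cells, where it binds the haem of soluble guanylate cyclase, a heterodimer of an alpha and a beta subunit, and starts the production of cyclic GMP. Natriuretic peptides raise cyclic GMP by another route, through membrane receptors that are themselves guanylate cyclases. Cyclic GMP activates a protein kinase that relaxes smooth muscle, and phosphodiesterases end the signal. In the kidney the pathway is known for widening arterioles, setting medullary blood flow, restraining renin release and tubular sodium uptake.

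Among the members, only probe sets of soluble guanylate cyclase were called between the strains. Gucy1a1, which encodes the alpha-1 subunit, and Gucy1b1, which encodes the haem-binding beta-1 subunit, were higher in congenic than in S kidneys. All 4 probe sets had every congenic rat above every S rat, as had 12.7% of all probe sets. Of the 4, 3 passed an adjusted p of 0.05 (limma, Benjamini-Hochberg over all 31042 probe sets), at 1.39-fold to 1.63-fold. The 7 probe sets of the synthases, the natriuretic peptide receptors and Pde5a lay between 0.92-fold and 1.09-fold, and 0 of them passed (limma; 0 were below an unadjusted p of 0.05). Called probe sets thus made up 3 of 11 members (27.3%), all of them higher, beside 3.47% of all probe sets called higher and 2.53% called lower. The 3 calls come from 2 genes of 1 enzyme and are not independent of each other. With the brightest probe set standing for each gene, 1 of 9 measured members was called higher, Gucy1a1, beside 2.12% of all measured genes. The brighter Gucy1b1 probe set was not called.

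Gucy1a1 and Gucy1b1 are next to each other among the protein-coding genes of chromosome 2 in the RefSeq annotation of the GRCr8 rat assembly, on the same strand, and so do not lie on the chromosome for which the congenic line is named. The 250 bases before their annotated starts are shown. Those of Gucy1b2 are added, a further cyclase subunit gene on chromosome 15 that was called in the other direction. Whether these bases have a part in the changes was not tested. The windows are chr2:169779624-169779873 for Gucy1a1, chr2:169696988-169697237 for Gucy1b1 and chr15:40845464-40845713 for Gucy1b2, all on the minus strand and from RefSeq (GRCr8). They are written 5′ to 3′, with capitals at each CCAAT box (CCAAT, or ATTGG on the other strand) and each GC box (GGGCGG or CCGCCC).
Gucy1a1: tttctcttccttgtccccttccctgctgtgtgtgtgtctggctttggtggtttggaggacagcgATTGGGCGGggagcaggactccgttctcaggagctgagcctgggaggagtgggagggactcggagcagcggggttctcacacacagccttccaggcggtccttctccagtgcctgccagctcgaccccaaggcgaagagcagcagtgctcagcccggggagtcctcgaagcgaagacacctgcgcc
Gucy1b1: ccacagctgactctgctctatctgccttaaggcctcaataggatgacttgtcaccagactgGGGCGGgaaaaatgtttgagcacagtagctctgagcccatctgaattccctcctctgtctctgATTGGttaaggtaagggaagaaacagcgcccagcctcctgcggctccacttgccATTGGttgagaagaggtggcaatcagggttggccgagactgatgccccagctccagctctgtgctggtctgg
Gucy1b2: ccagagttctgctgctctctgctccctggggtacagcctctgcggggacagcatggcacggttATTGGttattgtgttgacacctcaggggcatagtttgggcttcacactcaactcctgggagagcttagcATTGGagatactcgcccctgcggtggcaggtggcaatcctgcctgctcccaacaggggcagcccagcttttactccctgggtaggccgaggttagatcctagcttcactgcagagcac
In Gucy1a1 a CCAAT box and a GC box share bases, beginning 186 and 183 bases before the start. In Gucy1b1 a GC box begins 189 bases before the start and CCAAT boxes begin 126 and 72 bases before it. Gucy1b2 held 2 CCAAT boxes and no GC box, and none of the 3 windows held the TATA box TATAAA in either direction. Of 33469 promoter windows of the same length, 34.0% held a CCAAT box, 30.5% a GC box, 12.9% a TATA box and 10.1% both a CCAAT and a GC box, so these letters are common. The annotated genes Gucy1a1 and Gucy1b1 reach upstream of the start used in the table, so part of each window lies inside a longer gene model. Of the other members, Npr1, which was not called (change -0.12), also held 1 CCAAT box and 1 GC box. Nos1, Nos3 and Pde5a, also not called, held GC boxes and no CCAAT box. Npr3 and Prkg1 held neither.

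Values are log2 intensities, on which a difference of 1 is a 2-fold change, and a probe set is compared only with itself across rats. At the brighter Gucy1a1 probe set (1368154_at) the S rats stood at 10.22, 10.45 and 10.19 and the congenic rats at 10.78, 10.60 and 10.91. The means were 10.29 ± 0.14 and 10.76 ± 0.15 (SD, n = 3), a log2 change of 0.48 ± 0.10 (SE) with a 95% interval from 0.25 to 0.70 (limma, adjusted p = 0.0366). The lowest congenic rat was above the highest S rat. At the dimmer Gucy1a1 probe set (1387079_at) the S rats were at 6.44, 6.57 and 6.38 and the congenic rats at 6.94, 7.10 and 7.25. The change there was 0.63 ± 0.09 (SE, interval 0.42 to 0.84, limma adjusted p = 0.0201), or 1.55-fold.

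The Gucy1b1 probe sets moved the same way, and differed from each other in whether they passed. At 1369097_s_at the S rats lay close together, at 8.80, 8.87 and 8.81, and the congenic rats at 9.50, 9.28 and 9.79. This was the largest change among the 11 probe sets, 0.70 ± 0.12 (SE, interval 0.43 to 0.97, limma adjusted p = 0.0235), although the SD was 0.04 in S and 0.25 in congenic rats. The suffix of this probe set marks a design whose probes can match more than 1 transcript, so other transcripts could add to its signal. At the brighter Gucy1b1 probe set, 1374389_at, which is designed on an expressed sequence tag, the S rats stood at 9.60, 9.83 and 9.85 and the congenic rats at 10.11, 9.96 and 10.23. The groups did not overlap here either, but the change of 0.34 ± 0.10 (SE, interval 0.12 to 0.57) missed the threshold (limma adjusted p = 0.0689). Among congenic rats, rat 3 was the highest at all 4 cyclase probe sets, and rat 2 the lowest at 3 of them; among S rats no rat was the lowest at more than 2.

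**Figure D1:**
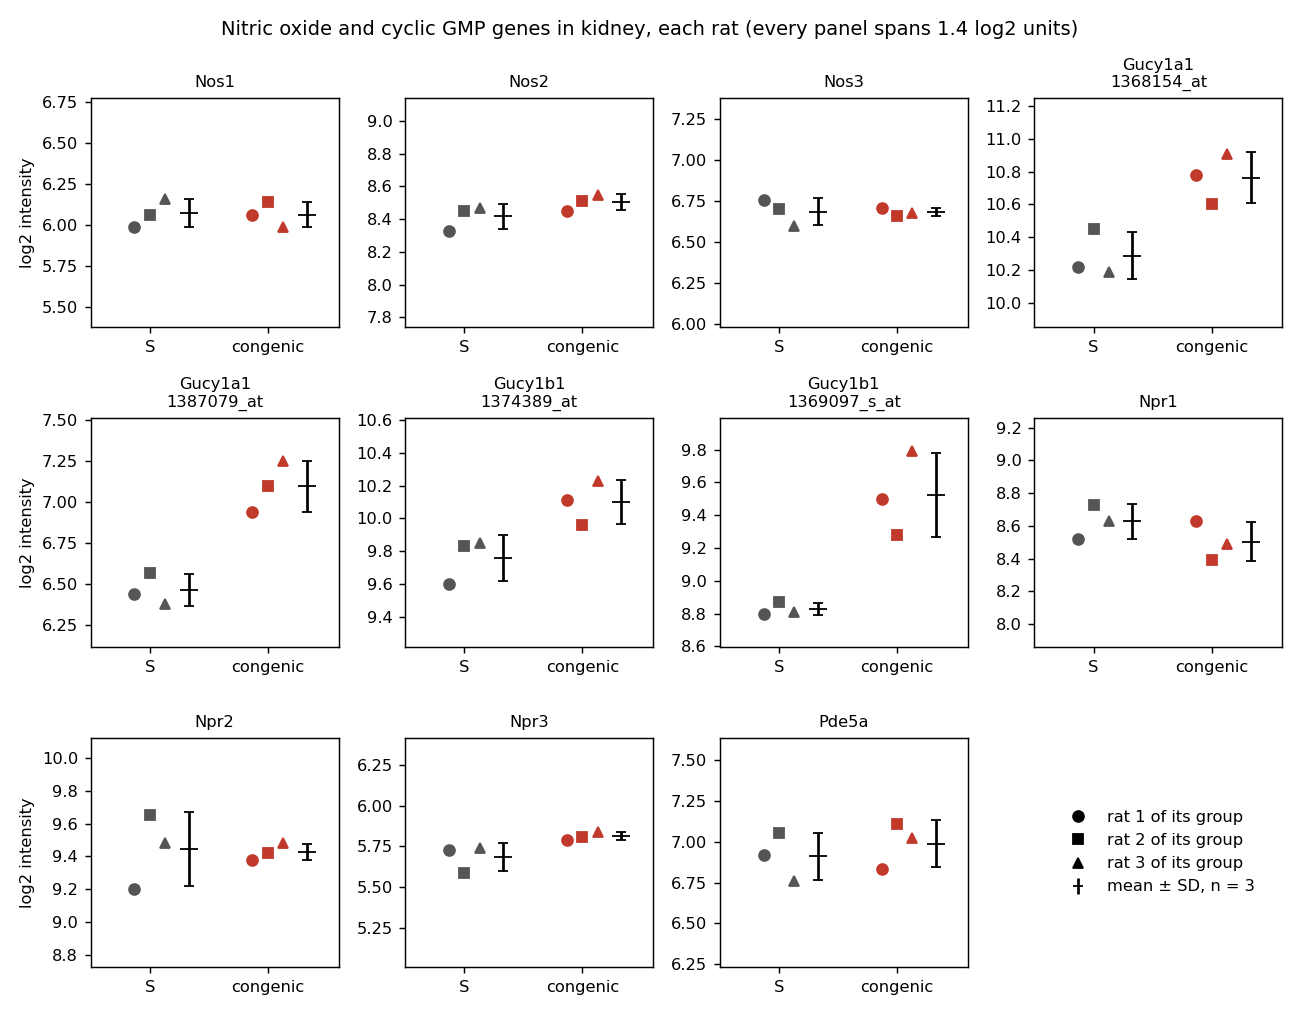
Log2 intensity of each member probe set in each rat (S in grey, congenic in red; the marker shape gives the rat's number within its group, and the bar the mean ± SD, n = 3); each panel spans the same height on the log2 axis. At the 4 Gucy1a1 and Gucy1b1 probe sets every congenic rat is above every S rat, with congenic rat 3 highest, while the groups overlap at Nos1, Nos2, Nos3, Npr1, Npr2 and Pde5a.

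The measure of RNA quality that separates the groups was set beside these rises. The 3′ minus 5′ difference of the beta-actin and Gapdh control probe sets, which grows when RNA is broken, was 1.56, 2.10 and 1.70 in S rats and 1.26, 1.01 and 1.08 in congenic rats, a difference of -0.67 in the means and no overlap (p = 0.1 in a two-sided exact permutation test, which cannot go lower with 3 rats in each group). S rat 2, with the highest difference, was the highest S rat at both Gucy1a1 probe sets and at 1369097_s_at, and was 0.02 below S rat 3 at 1374389_at. With this measure as a term in limma's model, the changes of the 4 cyclase probe sets did not shrink: 0.48 became 0.78, 0.63 became 0.69, 0.34 became 0.56 and 0.70 became 0.82. Their SEs widened to between 0.17 and 0.25, the unadjusted p lay between 0.00228 and 0.0179, and none passed (limma, adjusted p from 0.458 to 0.562), as none of the 31042 did. Because the measure separates the groups without overlap, its part and that of strain cannot be told apart here. S rat 2 also stood apart in some cell markers. Calb1 of the distal tubule was at 9.38 in this rat and from 12.73 to 13.52 in the others. The podocyte gene Nphs1 was at 5.67, and from 6.90 to 8.87 in the others. Umod of the thick ascending limb was at 14.76, and from 14.62 to 14.71 in the others. The part of cell content in the cyclase values of this rat was not tested.

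The calls rested on few rats. Without S rat 3, congenic rat 2 or congenic rat 3, 0 member probe sets passed, and without congenic rat 1 only Gucy1a1 at 1387079_at did, while leaving out S rat 1 or S rat 2 left the count at 3 (limma; 4 were below an unadjusted p of 0.05 in each case). The sizes moved less than the calls. Leaving out each rat in turn gave changes from 0.40 to 0.56 and from 0.56 to 0.71 for the Gucy1a1 probe sets, and from 0.26 to 0.42 and from 0.57 to 0.82 for those of Gucy1b1.

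**Figure D2:**
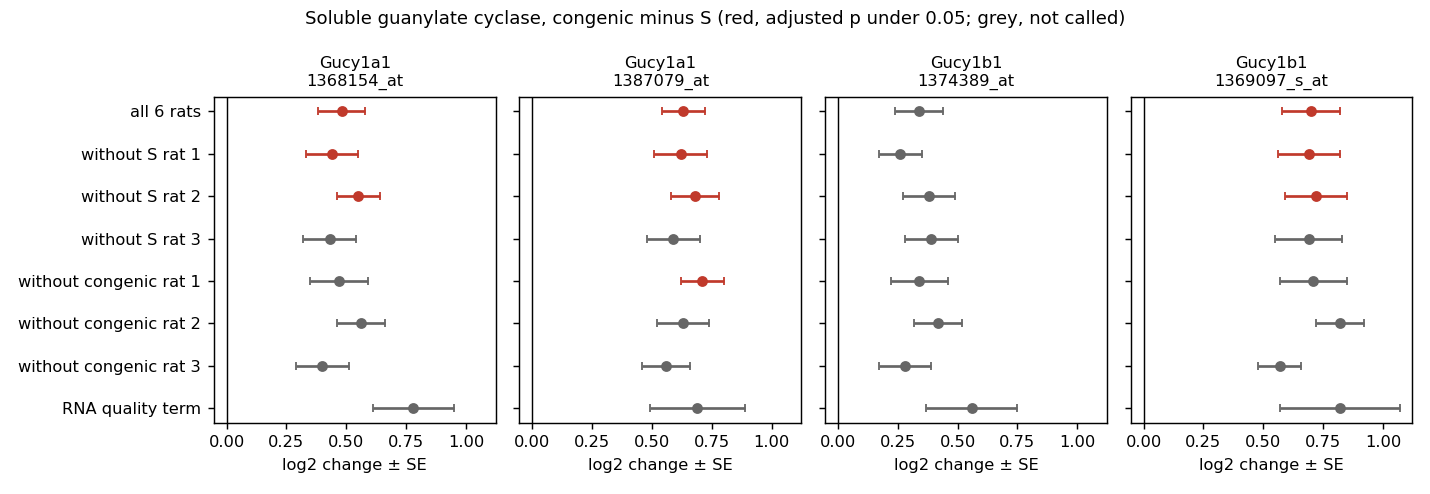
Log2 change (congenic minus S, ± SE, limma) of each Gucy1a1 and Gucy1b1 probe set with all 6 rats, without each rat in turn and with the RNA quality term; red marks an adjusted p under 0.05. Every estimate is above 0, from 0.26 to 0.82, and all 3 calls are lost without S rat 3, congenic rat 2 or congenic rat 3 and with the RNA quality term, and 2 of them without congenic rat 1.

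In whole kidney, more cells that express a gene and more RNA per cell cannot be told apart, and soluble guanylate cyclase is known from mural cells and interstitial fibroblasts. Of 7 measured fibroblast markers 4 were called higher in congenic rats (Col1a1, Dcn, Lum and Fbln5), beside 2.12% of all measured genes. The receptor gene Pdgfra, among the 3 that did not pass, stood at 0.0088. The mean log2 level of all 7 ran from 11.01 to 11.13 in S and from 11.58 to 11.72 in congenic rats. Of 12 markers of smooth muscle, pericytes and mesangium 0 passed (adjusted p from 0.0540 up, limma), with a median change of 0.29 and mean levels from 8.95 to 9.28 in S and from 9.24 to 9.35 in congenic rats. The 12 changes ran from -0.14 (Gata3) to 0.57 (the contractile gene Acta2, limma adjusted p = 0.163). Between them the pericyte receptor gene Pdgfrb stood at 0.04, Notch3 at 0.32 and the contractile gene Tagln at 0.34 (limma adjusted p = 0.0540). Of 12 endothelial markers Vwf fell by 0.54 and 11 did not pass, with mean levels of 9.77 to 9.80 and 9.81 to 9.83. Of 12 macrophage markers 5 were called higher, beside the same 2.12%, and 7 did not pass, with mean levels of 8.63 to 8.88 and 8.95 to 9.11. The part of these cell types in the cyclase difference was not tested. No marker of these 4 lists was at 0, since array values have no true zero, and Cd163, a macrophage receptor, had values from 4.56 to 4.81, below the lower quartile of every array (5.88 to 5.96).

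The nitric oxide synthases showed no difference that passed. Nos3, the endothelial enzyme, was at 6.76, 6.70 and 6.60 in S rats and at 6.71, 6.66 and 6.68 in congenic rats. The change was -0.0050 with an interval from -0.16 to 0.15 (limma adjusted p = 0.977). Nos1, the neuronal enzyme, known in kidney from the macula densa, was at 5.99, 6.06 and 6.16 in S and at 6.06, 6.14 and 5.99 in congenic rats, a change of -0.0059 (interval -0.17 to 0.16, limma adjusted p = 0.976). The Nos1 groups covered nearly the same range, and the congenic values of Nos3 lay inside the wider S range. The means of the Nos1, Nos3, Npr3 and Pde5a probe sets and the dimmer one of Gucy1a1 were below the median of all probe sets, and no detection call was used, so whether these probe sets were above background was not tested.

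Nos2 encodes the inducible synthase and was the member on chromosome 10, the chromosome for which the line is named. Its S values were 8.33, 8.45 and 8.47 and its congenic values 8.45, 8.51 and 8.55. The groups met at their edges, and the change of 0.09 ± 0.07 (SE, interval -0.07 to 0.24) did not pass (limma adjusted p = 0.490). The interval leaves room for a rise of up to 0.24 and not for a 2-fold difference in this signal. Whether LEW and S alleles differ within the bases its probes read was not examined here.

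None of the receptors for natriuretic peptides passed. Npr1, the cyclase-linked receptor of atrial and brain natriuretic peptides, was at 8.52, 8.73 and 8.63 in S and at 8.63, 8.39 and 8.49 in congenic rats (change -0.12, interval -0.32 to 0.07, limma adjusted p = 0.422). Npr2, the receptor of C-type natriuretic peptide, ranged from 9.20 to 9.65 in S and only from 9.38 to 9.48 in congenic rats, and its means differed by -0.01 (interval -0.26 to 0.24, limma adjusted p = 0.971). The S spread of Npr2 (SD 0.23) was the widest of the 7 probe sets outside soluble guanylate cyclase. Npr3, which clears the peptides from the blood, was at 5.73, 5.59 and 5.74 in S and at 5.79, 5.81 and 5.84 in congenic rats. It was the 1 probe set of these 7 whose groups did not overlap, and its change of 0.12 ± 0.07 (SE) did not pass (limma adjusted p = 0.304). All Npr3 values lay below the lower quartile of every array (5.88 to 5.96). Fat is another tissue known for these receptors: of 9 adipocyte markers Cidec fell and 8 did not pass, with mean levels from 8.51 to 9.05 in S and from 8.16 to 8.49 in congenic rats, and their part in the receptor values was not tested. Groups without overlap were found at 5 of 11 member probe sets, all higher, and at 31.2% of all probe sets (12.7% higher and 18.4% lower).

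Pde5a, the cyclic GMP-specific phosphodiesterase that sildenafil blocks, was at 6.92, 7.05 and 6.76 in S and at 6.83, 7.11 and 7.02 in congenic rats, with the groups overlapping. The change was 0.08 ± 0.10 (SE, interval -0.15 to 0.30, limma adjusted p = 0.703). Over all 7 probe sets outside soluble guanylate cyclase the 95% intervals reached no lower than -0.32 and no higher than 0.30. The median change was 0.09 over the 11 member probe sets and -0.02 over all probe sets.

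**Figure D3:**
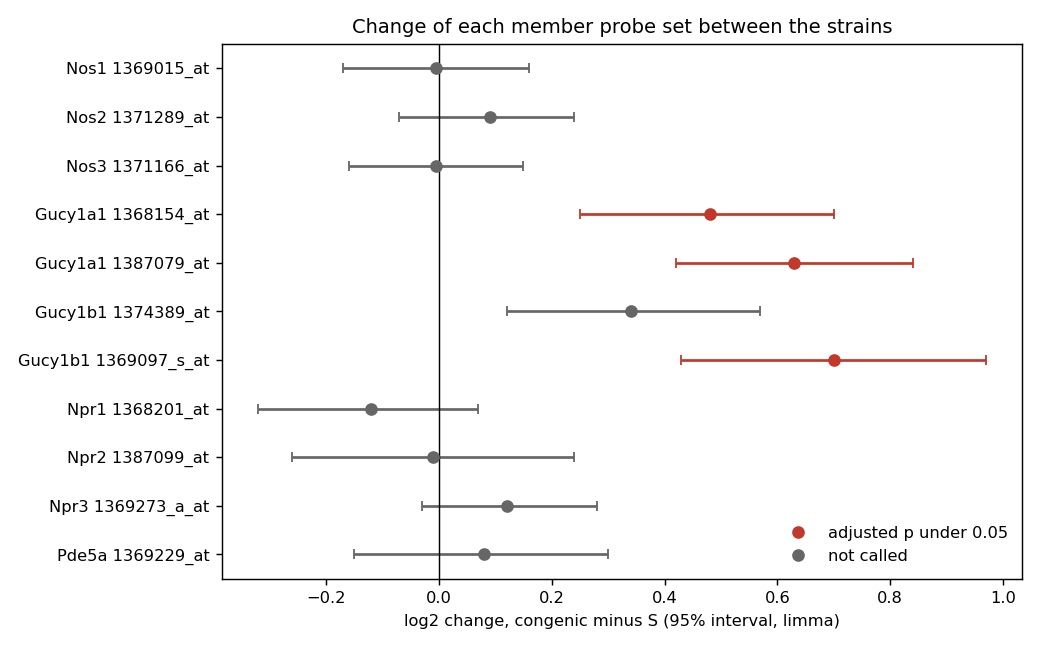
Log2 change between the strains (congenic minus S) of each of the 11 member probe sets with its 95% interval from limma; red marks an adjusted p under 0.05. The intervals of the 4 Gucy1a1 and Gucy1b1 probe sets lie above 0 and the other 7 include 0.

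Other genes of the pathway were taken from 6 lists, with the brightest probe set standing for each gene. Of 72 listed genes 61 were measured; 3 were higher and 2 lower in congenic rats (8.2% called), beside 4.79% of 14217 measured genes (2.12% higher and 2.67% lower), and their median change was 0.0036, beside -0.03 for all genes. Of 6 further cyclase genes Gucy1b2, the beta-2 subunit, fell and 5 did not pass. Its S values were 9.76, 9.61 and 9.71 and its congenic values 9.30, 9.22 and 9.39. The change was -0.39 ± 0.07 (SE, limma adjusted p = 0.0302), opposite in sign to that of Gucy1b1. With the RNA quality term it was -0.52 and did not pass (limma adjusted p = 0.499). The remaining cyclases, Gucy1a2, Gucy2c, Gucy2d, Gucy2e and Gucy2f, lay between -0.05 and 0.04.

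Calls among the genes of arginine supply went in both directions. Slc7a7, which carries basic amino acids out of epithelial cells into the blood, rose from 10.65, 9.60 and 9.81 in S to 11.60, 11.19 and 11.43 in congenic rats (1.38 ± 0.24 SE, limma adjusted p = 0.0256), and its change was 0.66 with the RNA quality term. Slc7a7 is itself known from the proximal tubule. Of the 11 proximal tubule markers 4 were called higher, among them Slc22a8 at 1.65 and Slc4a4 at 1.94. The other 7 did not pass and lay between -0.09 (Lrp2) and 0.38 (Slc13a3), with Kap at -0.03 and Cubn at 0.04. The part of tubule content in the rise of Slc7a7 was not tested. Asl, which makes arginine from argininosuccinate, rose by 0.51 ± 0.12 (SE, limma adjusted p = 0.0491), and at its dimmer probe set the change was 0.39 (limma adjusted p = 0.0702). Slc7a1, a cationic amino acid importer, fell by 0.35 ± 0.08 (SE, limma adjusted p = 0.0413) and stood at -0.08 with the RNA quality term, while its other probe sets stood at -0.0035 and -0.14. The other 8 genes of tetrahydrobiopterin and arginine supply did not pass, with Arg1 and Arg2, the arginases that use up arginine, at -0.46 and -0.24 and Ass1, the enzyme before Asl, at 0.29.

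Among 11 phosphodiesterase and export genes Pde3b, an enzyme that cyclic GMP inhibits, rose from 7.48, 7.23 and 7.34 to 8.11, 7.84 and 7.87 (0.59 ± 0.10 SE, limma adjusted p = 0.0224) and 10 did not pass. Pde1a, a calcium-dependent phosphodiesterase, was at 0.67 and missed the threshold (adjusted p = 0.0606). None of 7 ligand and processing genes passed, with Guca2a, which encodes guanylin, at -0.24 (adjusted p = 0.0982) and Mme, the peptidase that degrades natriuretic peptides, at -0.18. None of 12 synthase partners and inhibitors passed, with Nosip at -0.31 (adjusted p = 0.0955) and Ddah2, which breaks down an inhibitor of the synthases, at -0.25. None of 14 kinases, targets and channels passed, with Kcnmb1, a subunit of the calcium-activated potassium channel, at 0.27 and Irag1, a target of the kinase on the calcium store, at -0.21. Without S rat 3 or without any 1 of the congenic rats 0 of the 61 passed (limma; 15 without S rat 3, and 17, 9 and 14 without congenic rats 1, 2 and 3, were below an unadjusted p of 0.05); without S rat 2 there were 3 and without S rat 1 there were 11.

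**Figure D4:**
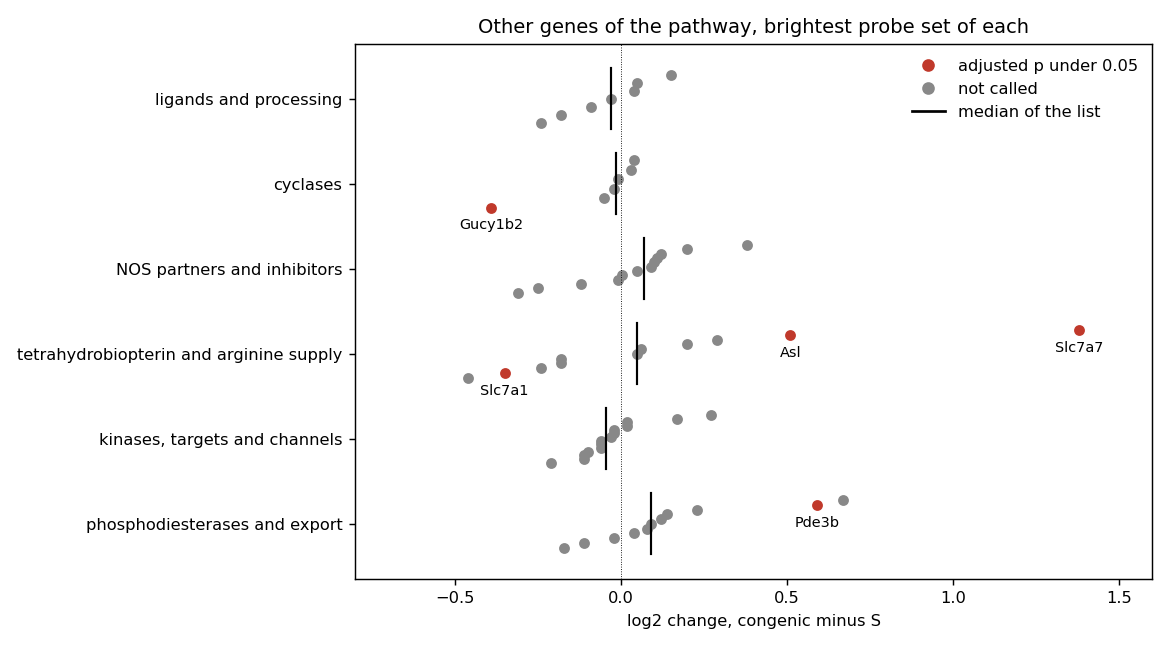
Log2 change (congenic minus S) of the 61 other pathway genes at their brightest probe sets, by list, with the median of each list as a black line; red marks an adjusted p under 0.05 (limma). The 5 called genes are Slc7a7, Pde3b and Asl on the higher side and Gucy1b2 and Slc7a1 on the lower side, and list medians lie between -0.05 and 0.09.

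The genes most like each called cyclase probe set were found by Pearson correlation over the 6 arrays, among the brightest probe sets of 9798 other genes with a mean above the median. For Gucy1a1 at 1368154_at they were Ly6e (r = 0.9947), Anxa1 (r = 0.9936) and Npc2 (r = 0.9909). For Gucy1a1 at 1387079_at they were Timp1 (r = 0.9962), Irf1 (r = 0.9916) and Safb (r = 0.9905), and for Gucy1b1 at 1369097_s_at Bmt2 (r = 0.9935), Lyz2 (r = 0.9909) and Irgm2 (r = 0.9895). The 3 sets share no gene. Of these 9 genes Timp1, Irf1, Lyz2 and Irgm2 were called higher, by 0.53, 0.36, 0.35 and 0.33. The correlations rest on 6 values that for the cyclase separate the strains, and they describe these arrays only.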

How the data were processed

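Kidney RNA of 3 S and 3 congenic rats was measured on Affymetrix arrays, 1 per rat. The deposited table holds log2 intensities of 31099 probe sets, judged from the values (3.76 to 15.1, array medians 7.47 to 7.50) to be already comparable between arrays. How the authors computed them (software, summarization) is not given in the sources used here. Scanner files were not used. Array values have no read depth, so precision rests on 3 rats per group.

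After leaving out 57 control probe sets, 31042 were tested with limma 3.58.1 in R 4.3.3 (lmFit, eBayes, two-sided, Benjamini-Hochberg, adjusted p under 0.05; 4 residual degrees of freedom, 8.49 with the prior). On simulated data the method recovered 29 of 67 log2 changes of 0.5 (43.3%), 64 of 67 of 1 and 66 of 66 of 2, with 4 false calls. The simulation had independent normal noise, few changed probe sets and no RNA quality difference between groups. These shares therefore need not hold for the real arrays. Names came from the platform annotation, updated by Entrez identifier to RefSeq (GRCr8): 20826 probe sets had 1 symbol (20758 matched RefSeq), 436 several and 9780 none. Promoters in RefSeq's table matched 8 of 10 members. Figures used matplotlib 3.10.9.

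Named genes were all members, every called gene of the 6 pathway lists, otherwise up to 2 per list with the smallest p, and the 3 genes most like each called member probe set. Arg1, Arg2, Ass1, Pde1a, the uncalled cyclases and the second probe sets were chosen after their values were seen. The cell type markers named singly were not covered by this rule. Members and lists were chosen with earlier results of these data known. Alternatives covered normalization, filtering, eBayes settings, weights per array, rat numbers as a block, each rat left out, thresholds, the probe set per gene and the RNA quality term.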

Additional observations from a re-analysis of the deposited data

How the results depend on the processing

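The direction of all 4 cyclase probe sets held under every alternative run, with log2 changes from 0.40 to 0.78 and from 0.56 to 0.73 for Gucy1a1 and from 0.26 to 0.56 and from 0.57 to 0.82 for Gucy1b1. Adjusted p ran from 0.00287 to 0.458 at 1368154_at (called under 9 of 16 alternatives), from 0.00141 to 0.509 at 1387079_at (9 of 14), from 0.0224 to 0.562 at 1374389_at (2 of 16) and from 0.00267 to 0.537 at 1369097_s_at (9 of 15). The 3 member calls became 0 under an unmoderated test (4 below an unadjusted p of 0.05), 0 at an adjusted p under 0.01, 0 with the RNA quality term, and 1 with a single probe set per gene, the brightest; leaving out each rat gave 0 to 3. Over all probe sets the 1862 calls became 0 under the unmoderated test (6166 below an unadjusted p of 0.05), 0 with the RNA quality term (2292), 6077 with array weights, 4455 at 0.10, 20 at 0.01, 666 among 14217 genes at 1 probe set each, and 0 to 4752 without 1 rat (limma; 6968 without S rat 3 and 5575 without congenic rat 2 were below an unadjusted p of 0.05). The 5 calls among other pathway genes became 8 at the most variable probe set, 0 with the RNA quality term (4 below an unadjusted p of 0.05) and 0 to 11 without 1 rat. The cause of these shifts was not tested, beyond the fewer rats or genes that enter some fits.

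With the rat number as a replicate block 658 probe sets and 2 member probe sets passed, and Gucy1a1 at 1368154_at did not (adjusted p = 0.0777). Deviations from the group means of same-numbered rats correlated at -0.01, -0.18 and -0.14, and those of differently numbered rats at -0.25 to 0.38. With 3 rats per group these values cannot show whether same-numbered rats shared a cage. Which rats shared a cage is not given in the labels, so no fit is known to take the cage into account.

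Some uncalled members changed sign: Nos3 stood at 0.04 with array weights, Npr2 at 0.01 under quantile normalization and 0.37 with the RNA quality term, Npr1 at 0.19 and Npr3 at -0.05 with that term. Leaving out each rat gave -0.05 to 0.04 for Nos1, -0.05 to 0.03 for Nos3, -0.13 to 0.09 for Npr2 and -0.00012 to 0.15 for Pde5a. Signal over background limits the dim probe sets, since no detection call was used.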

Other observations

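Of 22 dimmer probe sets of the other pathway genes 3 were called, all higher, beside 6.00% of all probe sets called and 3.47% called higher. All 3 belong to genes whose brightest probe set did not pass, and they were chosen after their values were seen. For Cav1, which encodes caveolin-1, a partner that holds Nos3 inactive, the brightest probe set stood at 0.05 (limma adjusted p = 0.739) and a dimmer one rose from 6.91, 6.63 and 6.74 in S to 7.47, 7.50 and 7.54 in congenic rats (0.75 ± 0.08 SE, adjusted p = 0.0137). For Rgs2, a regulator of G protein signalling that the cyclic GMP kinase activates, the brightest stood at 0.17 and a dimmer one rose by 0.72 (adjusted p = 0.0333). For Akt1, a kinase that activates Nos3, the brightest stood at -0.0094 and a dimmer one rose by 0.57 (adjusted p = 0.0341). In each of the 3 dimmer probe sets S rat 2, the rat with the largest 3′ minus 5′ difference, was the lowest of all 6 rats; the part of RNA quality in these values was not tested.

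A probe set that the annotation assigns to both Nos2 and the pseudogene Nos2-ps1, and which is therefore no member, was at 5.58, 5.54 and 5.53 in S and at 5.27, 5.37 and 5.40 in congenic rats. Its change of -0.20 ± 0.07 (SE) did not pass (limma adjusted p = 0.10) and had the opposite sign to that of the Nos2 probe set. Its mean was at the percentile 17.3 of all probe sets.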
